A study of Homo sapiens with 3 samples.

Results

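Before each cell division the genome is copied once from many origins. In G1 the origin recognition complex (ORC), CDC6 and CDT1 load the ring-shaped MCM helicase onto DNA, a step called licensing. At the start of S phase the kinase CDC7 with its activator DBF4, together with cyclin-dependent kinases, turns the ring into an active helicase by adding CDC45 and the GINS complex, and polymerases, a sliding clamp and its loaders then follow the fork. Many of these genes are transcribed by E2F factors around the G1/S boundary, and proliferating carcinoma cells carry their mRNAs at readily measured levels.

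The 51 genes described here were chosen by this function, from origin recognition to chromatin assembly behind the fork. All 51 had at least 1 probe set annotated to that gene alone, out of 18239 genes on the array, and all 51 passed a filter on dim signal, set at the 30th percentile of the mean log2 value (3.93), that kept 12779 genes. For each gene the brightest of its probe sets stands for the gene, and the 51 genes had 133 probe sets in all.

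The cells, labelled GFP-SAS, derive from SAS, an established line of human tongue carcinoma. They received a small interfering RNA (siRNA), a short double-stranded RNA that guides the cutting of mRNAs it matches, at 10 nM over 24 h. There were 2 libraries with siRNAs against AKT1, 1 with siAkt1-22 and 1 with siAkt1-58, and 1 library with the non-targeting siRNA siNT, so the control cells had also received an siRNA. The question addressed is how gene expression differs after knockdown of AKT1, a kinase of growth factor signalling. All libraries come from this 1 cell line, and the labels do not say that they came from separate cultures. Values are deposited log2 expression values, and differences are log2 differences from siNT unless stated.

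AKT1 itself read 3.67 with siAkt1-22 and 3.47 with siAkt1-58, against 6.75 with siNT. Of 10 squamous epithelial markers with a probe set, 9 lay above the filter level in every library, while KRT14 lay below it with siAkt1-22 (3.67), siAkt1-58 (3.67) and siNT (3.65). Above that level stood 1 of 7 fibroblast markers (PDGFRB), 1 of 6 immune markers (CD68) and 2 of 4 endothelial markers (PECAM1 and VWF). On the linear scale the epithelial markers summed to 5081 with siAkt1-22 and 8676 with siAkt1-58, against 5866 with siNT. Of the 9 that passed the filter, 4 were below siNT and 4 above with siAkt1-22, and 9 were above with siAkt1-58. The lowest difference with siAkt1-22 was that of ITGA6, which read 8.37 with siAkt1-22 and 11.14 with siAkt1-58, against 10.42 with siNT. For the 24 probe sets of the spiked poly-A controls the median difference was -0.564 with siAkt1-22 and -0.013 with siAkt1-58. The part of these marker and control values in the differences below was not tested.

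With siAkt1-58, all 51 replication genes were below siNT, by -0.01 to -3.00. Below siNT by any amount with siAkt1-58 were 37% of all genes tested (4727 genes), with 5824 above and the rest tied with siNT. At least 2-fold lower with siAkt1-58 were 30 of the 51, against 3.58% of all genes tested, and 0 were at least 2-fold higher, against 1.54% of all genes tested. With siAkt1-22 the same genes lay on both sides of siNT, 36 below and 15 above, where 35.7% of all genes tested were below. At least 2-fold lower with siAkt1-22 were 7 of the 51, against 5.97% of all genes tested, and 1 (RNASEH2A) was at least 2-fold higher, against 4.4% of all genes tested. Below siNT with both siRNAs were 36 genes and above it with both 0, against 21.4% and 30.9% of all genes tested. The median difference of the 51 was -0.23 with siAkt1-22 and -1.26 with siAkt1-58, beside medians of 0 over all genes tested with either siRNA.

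The 7 genes that were at least 2-fold lower with siAkt1-22 were also at least 2-fold lower with siAkt1-58, a rule that 1.17% of all genes tested met. At least 2-fold higher with both were 0 of the 51, against 0.736% of all genes tested. They are the helicase subunit gene MCM6, the kinase activator DBF4, the GINS subunit GINS3, the polymerase delta subunit POLD3, the clamp loader subunit DSCC1, the flap endonuclease FEN1 and DTL, which marks the loading factor CDT1 for destruction. A further 16 of the 51 were at least 2-fold lower with siAkt1-58 while staying within 1.5-fold of siNT with siAkt1-22, against 1.66% of all genes tested. Among these were MCM4, MCM7, GINS2, CDC7, RFC4, RFC5, POLE2 and TIPIN.

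Within a gene, siAkt1-58 was the lowest of the 3 libraries in 49 of the 51 genes, against 24.2% of all genes tested, and in 16 of them it lay at least 2-fold below each of the others, against 1.6%. In 34 of the 51 genes siAkt1-58 was lowest, siAkt1-22 intermediate and siNT highest, an order found in 8.61% of all genes tested. In 15 genes siAkt1-22 was highest, siNT intermediate and siAkt1-58 lowest, against 13.5% of all genes tested. In MCM6 and DBF4 siAkt1-22 was lowest and siAkt1-58 intermediate, against 11% of all genes tested. No replication gene had siNT as its lowest library. Over all genes tested siNT was lowest with siAkt1-22 intermediate in 9.33%, and lowest with siAkt1-58 intermediate in 18.4%. A further 27.1% of all genes tested had a tie and so no order, against 0 of the 51. Set directly against each other, the siRNAs differed at least 2-fold in 18 of the 51 genes, all higher with siAkt1-22, against 5% of all genes tested in that direction and 5.28% in the other.

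In limma's moderated test the siAkt1 libraries, taken as 1 group, differed from siNT for none of the replication genes (0% of the 12779 genes tested passed, 0 of 51 replication genes, lowest adjusted p = 0.607 by limma with Benjamini-Hochberg adjustment). An unadjusted p under 0.05 was found for 6 of the 51 (POLD3, ORC3, DBF4, GINS3, DTL and FEN1), against 7.47% of all genes tested. That test has 1 residual degree of freedom, takes the spread from the difference between the siRNAs, assumes that the lone siNT library varies likewise, and measures only the spread between these libraries, which may be technical. Both differences share the 1 siNT library, so they are not independent of each other, and in RNA from whole cultures fewer cells in S phase and less mRNA per cell cannot be told apart.

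**Figure D1:**
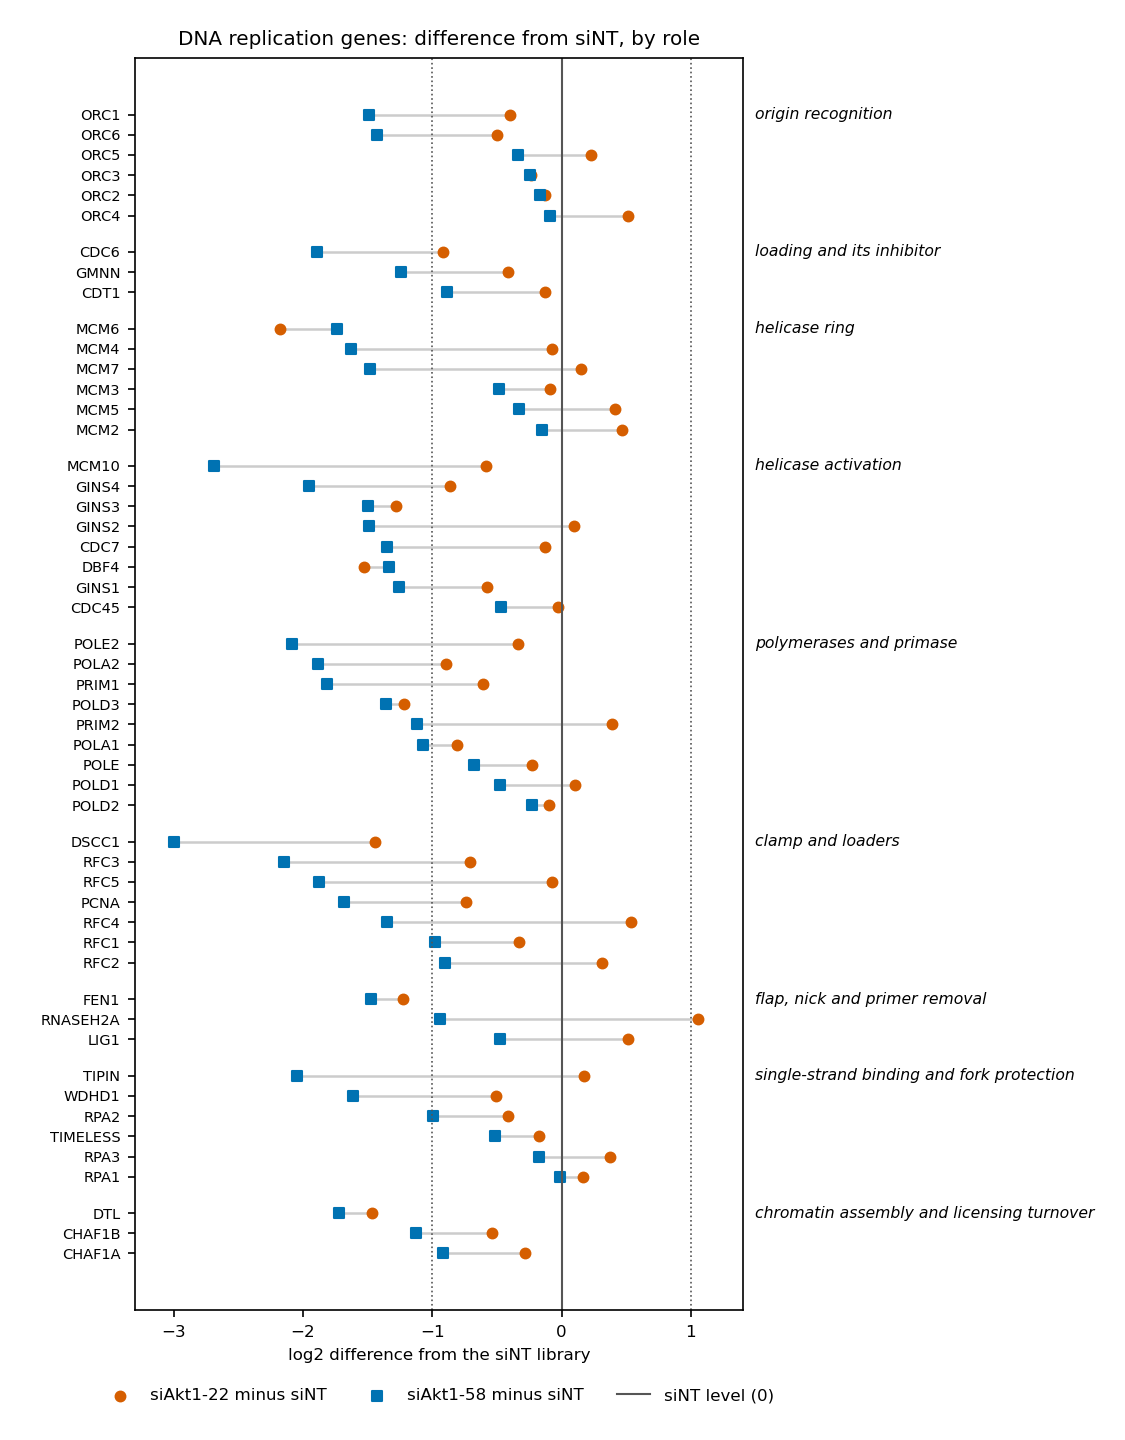
Log2 difference from the siNT library (x axis; 0 is siNT, dotted lines mark 2-fold) of the brightest probe set of each of the 51 replication genes (y axis, grouped by role), with siAkt1-22 as circles and siAkt1-58 as squares, 1 library each. All 51 squares lie below 0 and 30 lie at or beyond 2-fold, while 15 circles lie above 0.

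E2F-like letters occurred in some genes lower with both siRNAs and in some lower only with siAkt1-58. Listed promoters of other genes lacked them, among them DBF4 and FEN1, lower with both, and RFC4, RFC5 and PRIM2, lower only with siAkt1-58. Of the promoters listed for MCM7 and for TIPIN, 1 each held a match. Printed here are promoter sequences of 6 genes from both kinds, picked because they hold a match. They are RefSeq promoters on GRCh38.p14, from 250 bases before to 50 bases after the start, 5′ to 3′ on the gene's strand, and capitals mark TTTCCCGC, TTTCGCGC, TTTGCCGC or TTTGGCGC on either strand. MCM6 (chr2:135876394-135876693, minus strand), DTL (chr1:212035498-212035797, plus strand) and GINS3 (chr16:58392221-58392520, plus strand) were at least 2-fold lower with both siRNAs. GINS2 (chr16:85688905-85689204, minus strand), MCM7 (chr7:100101348-100101647, minus strand, 1 of 3 promoters listed) and TIPIN (chr15:66356636-66356935, minus strand, 1 of 2 listed) were at least 2-fold lower with siAkt1-58 and near siNT with siAkt1-22.
MCM6: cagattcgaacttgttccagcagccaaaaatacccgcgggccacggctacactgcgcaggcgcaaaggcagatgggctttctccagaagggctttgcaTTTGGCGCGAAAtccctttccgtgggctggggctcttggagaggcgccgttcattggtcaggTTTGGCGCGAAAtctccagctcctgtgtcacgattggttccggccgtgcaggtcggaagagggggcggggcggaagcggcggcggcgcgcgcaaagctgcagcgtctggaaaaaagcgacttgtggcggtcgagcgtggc
DTL: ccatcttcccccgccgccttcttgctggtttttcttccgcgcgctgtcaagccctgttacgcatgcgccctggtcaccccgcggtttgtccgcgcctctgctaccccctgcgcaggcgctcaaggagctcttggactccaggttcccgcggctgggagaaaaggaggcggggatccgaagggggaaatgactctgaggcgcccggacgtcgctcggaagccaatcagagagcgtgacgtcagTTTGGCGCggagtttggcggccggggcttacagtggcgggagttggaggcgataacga
GINS3: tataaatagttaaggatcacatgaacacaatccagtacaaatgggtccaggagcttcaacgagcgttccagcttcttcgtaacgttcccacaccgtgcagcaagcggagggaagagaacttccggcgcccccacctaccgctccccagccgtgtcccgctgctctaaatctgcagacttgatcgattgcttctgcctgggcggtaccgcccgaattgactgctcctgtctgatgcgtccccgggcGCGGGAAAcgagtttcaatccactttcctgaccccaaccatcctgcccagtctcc
GINS2: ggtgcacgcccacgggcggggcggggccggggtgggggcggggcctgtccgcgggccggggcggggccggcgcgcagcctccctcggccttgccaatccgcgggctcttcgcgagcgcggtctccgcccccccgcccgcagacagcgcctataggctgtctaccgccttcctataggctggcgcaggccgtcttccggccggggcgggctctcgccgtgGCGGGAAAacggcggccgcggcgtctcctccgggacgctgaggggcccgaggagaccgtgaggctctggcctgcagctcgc
MCM7: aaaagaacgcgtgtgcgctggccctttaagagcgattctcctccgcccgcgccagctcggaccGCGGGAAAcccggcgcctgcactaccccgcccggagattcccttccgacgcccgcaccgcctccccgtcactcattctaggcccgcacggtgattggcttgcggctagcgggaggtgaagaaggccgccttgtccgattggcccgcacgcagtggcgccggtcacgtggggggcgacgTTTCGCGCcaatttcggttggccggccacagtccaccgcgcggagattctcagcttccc
TIPIN: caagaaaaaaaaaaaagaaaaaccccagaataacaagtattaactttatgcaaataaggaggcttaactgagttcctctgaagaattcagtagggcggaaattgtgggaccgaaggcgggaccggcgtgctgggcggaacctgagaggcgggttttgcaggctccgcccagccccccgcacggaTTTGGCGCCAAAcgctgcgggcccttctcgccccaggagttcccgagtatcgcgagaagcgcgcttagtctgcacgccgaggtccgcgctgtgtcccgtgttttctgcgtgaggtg

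The MCM6 promoter holds 4 matches in overlapping pairs, at positions -152, -148, -90 and -86 from the start, where -1 is the base before it. TIPIN holds an overlapping pair at -66 and -62, and MCM7 holds matches at -187 and -9, the second of which overlaps a CCAAT box. DTL, GINS3 and GINS2 hold 1 match each, at -8, -5 and -31. Promoters were listed for 44 of the 51 genes, all but MCM4, MCM5, GINS4, POLD3, DSCC1, RPA2 and RPA3. E2F-like letters were present in any listed promoter for 21 of the 44 (47.7%), against 6.24% of the genes tested with a listed promoter. Counted likewise by gene, they were present for 3.99% of all genes with a listed promoter. Counted by promoter, they were present in 3.31% of all listed promoters of this length. A CCAAT box (CCAAT on either strand) was present for 26 of the 44 (59.1%), against 42.8% of the genes tested. The CHR letters TTTGAA or TTCGAA, known from promoters of mitotic genes, were found for 2 of the 44 (4.55%), MCM6 (position -246) and DBF4 (position -3), against 16.2% of the genes tested.

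Genes with and without E2F-like letters overlapped in their differences from siNT. The 21 genes with E2F-like letters had median differences of -0.33 with siAkt1-22 and -1.48 with siAkt1-58, and 15 of them were at least 2-fold lower with siAkt1-58. For the 23 without them the medians were -0.13 and -0.98, and 11 were at least 2-fold lower with siAkt1-58. Among the 21, the values with siAkt1-58 reached from -2.15 for RFC3 to -0.15 for MCM2, whose other probe sets were lower (-1.62 to -1.50), and the next value was -0.24 for ORC3. Of all 650 genes tested with E2F-like letters, the 21 included, 9.08% were at least 2-fold lower with siAkt1-58, against 3.37% of the 9764 without, and 8.46% and 5.81% were at least 2-fold lower with siAkt1-22. A match describes letters and not a bound site, and none of these differences was tested.

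**Figure D2:**
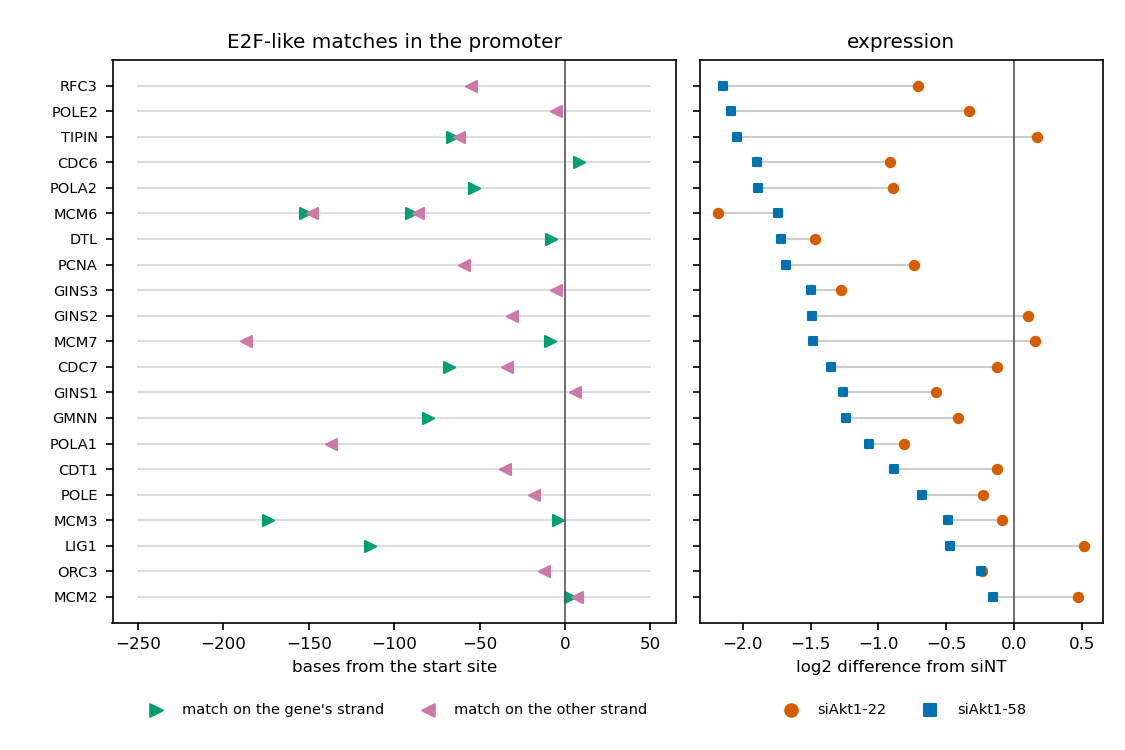
Left, position of E2F-like matches in bases from the start site (x axis) in the promoters of 21 replication genes (y axis), as triangles pointing along the strand of the match. Right, log2 difference of the same genes from siNT with siAkt1-22 (circles) and siAkt1-58 (squares), 1 library each, ordered by the siAkt1-58 value from RFC3 at -2.15 to MCM2 at -0.15 (brightest probe sets; the other 3 of MCM2 lie at -1.62 to -1.50).

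Origin recognition genes split into a pair that was lower with siAkt1-58 and 4 that stayed near siNT. ORC1, the large ATPase subunit whose amount varies through the human cell cycle, read 5.58 with siAkt1-22 and 4.49 with siAkt1-58, against 5.98 with siNT. ORC6, the smallest subunit, read 9.21 and 8.29, against 9.71 with siNT. In both genes siAkt1-58 was lowest, by -1.49 for ORC1 and -1.43 for ORC6, and siAkt1-22 lay at -0.40 and -0.50. The core subunits ORC2, ORC3, ORC4 and ORC5 lay between -0.34 and -0.09 with siAkt1-58 and between -0.23 and 0.51 with siAkt1-22. ORC3 was the tightest pair of any replication gene that was lower with both, at -0.23 and -0.24, and its 7 probe sets ranged from -0.49 to 0 with siAkt1-22 and from -0.45 to 0.02 with siAkt1-58.

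In their brightest probe sets all 3 genes of helicase loading were below siNT with both siRNAs, CDT1 by only -0.13 with siAkt1-22. All were further below with siAkt1-58. CDC6, the ATPase that joins ORC to load the helicase, read 8.52 with siAkt1-22 and 7.54 with siAkt1-58, against 9.44 with siNT, differences of -0.92 and -1.89. Its other probe set gave -1.68 and -1.94, so that CDC6 falls on either side of the 2-fold limit with siAkt1-22 depending on the probe set. CDT1, the helicase chaperone in loading, read 7.55 and 6.79, against 7.67 with siNT, and its 3 probe sets spanned -0.13 to 0.16 with siAkt1-22 and -1.28 to -0.61 with siAkt1-58. GMNN encodes geminin, which blocks CDT1 after licensing, and read 9.27 and 8.45, against 9.69 with siNT. With siAkt1-58 the inhibitor was thus lower along with CDT1, which it opposes, by -1.24 and -0.89. With siAkt1-22 GMNN was at -0.42, whereas CDT1 lay near siNT, on different sides of it by probe set.

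The helicase ring is built of MCM2 to MCM7 in equal numbers, yet their genes did not show 1 shared pattern. MCM6 read 5.81 with siAkt1-22 and 6.25 with siAkt1-58, against 7.99 with siNT, which is 4.53-fold below siNT with siAkt1-22 and 3.34-fold below it with siAkt1-58 (mean difference -1.96 ± 0.31, SD, n = 2). MCM4 read 9.81 and 8.26, against 9.88 with siNT, and MCM7 read 11.41 and 9.78, against 11.26 with siNT. With siAkt1-22, therefore, MCM4 lay at -0.08 and MCM7 at 0.15 from siNT, where MCM6 was lower by -2.18, and with siAkt1-58 the 3 genes were alike, at -1.63, -1.48 and -1.74. All 4 probe sets of MCM4 (-1.79 to -1.63) and all 4 of MCM7 (-1.58 to -1.48) were at least 2-fold lower with siAkt1-58. The size for MCM6 depends on the probe set: its other set above the filter level gave -1.27 with siAkt1-22 and -1.15 with siAkt1-58.

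MCM2, MCM3 and MCM5 were closer to siNT in their brightest probe sets, but for MCM2 and MCM3 this rests on that choice. The brightest MCM2 probe set read 8.71 with siAkt1-22 and 8.08 with siAkt1-58, against 8.23 with siNT. Its other 3 probe sets stood at 0.22, 0.29 and 0.49 with siAkt1-22 and at -1.50, -1.62 and -1.58 with siAkt1-58. MCM3 likewise was -0.49 with siAkt1-58 in its brightest probe set and -1.26, -1.55 and -1.52 in the others, while all 4 lay between -0.34 and -0.09 with siAkt1-22. MCM5, with 1 probe set, read 5.43 and 4.69, against 5.02 with siNT. Counting probe sets, MCM2, MCM3, MCM4 and MCM7 thus shared a value near siNT with siAkt1-22 and a lower one with siAkt1-58, and MCM6 differed from them in the siAkt1-22 library. Across all 51 genes, CDC45, MCM2, MCM3 and RPA2 were the 4 in which most probe sets above the filter level, but not the brightest, were at least 2-fold lower with siAkt1-58.

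**Figure D3:**
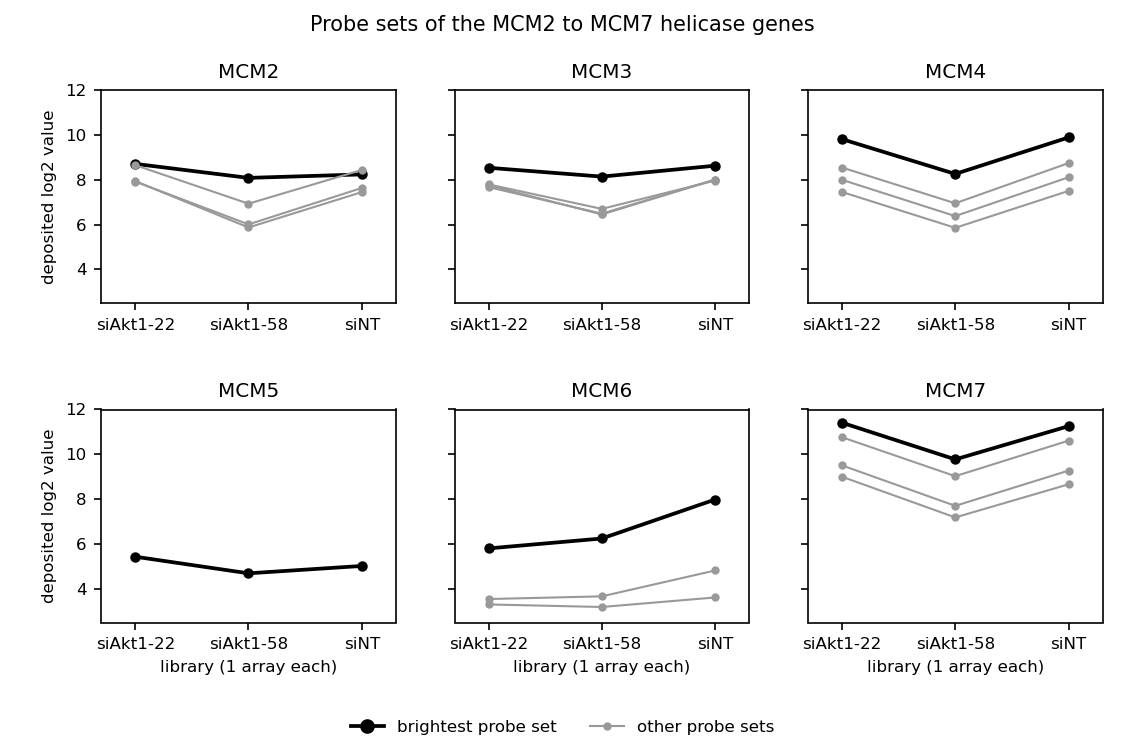
Deposited log2 value (y axis) of every probe set of MCM2 to MCM7 in the siAkt1-22, siAkt1-58 and siNT libraries (x axis, 1 array each), with the brightest probe set in black and the others in grey. MCM6 is low with both siAkt1 siRNAs (5.81 and 6.25, against 7.99 with siNT), whereas MCM4 and MCM7 are low only with siAkt1-58 and the grey MCM2 and MCM3 lines dip further than the black ones.

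Of the 8 genes of helicase activation, 7 were at least 2-fold lower with siAkt1-58 (3.58% of all genes tested) and 2 with siAkt1-22 (5.97%). DBF4, the regulatory subunit of CDC7 kinase, read 7.57 with siAkt1-22 and 7.76 with siAkt1-58, against 9.10 with siNT (mean difference -1.43 ± 0.14, SD, n = 2). Its 6 probe sets above the filter level were all at least 2-fold lower with both siRNAs, from -1.73 to -1.53 with siAkt1-22 and from -1.40 to -1.15 with siAkt1-58. The kinase subunit CDC7 read 7.29 and 6.07, against 7.42 with siNT. DBF4 was thus low in both siAkt1 libraries, while CDC7 was low with siAkt1-58 and within 0.13 of siNT with siAkt1-22; dimmer CDC7 probe sets gave 0 and -0.63 with siAkt1-22 and -0.28 and -0.62 with siAkt1-58, and averaging gave -0.75 with siAkt1-58.

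The subunits of GINS, which sits on the MCM ring next to CDC45, also differed from each other. GINS3 read 6.95 with siAkt1-22 and 6.73 with siAkt1-58, against 8.23 with siNT (mean difference -1.39 ± 0.15, SD, n = 2). GINS2 read 7.68 and 6.09, against 7.58 with siNT. GINS1 and GINS4 were intermediate with siAkt1-22 (-0.58 and -0.86) and low with siAkt1-58 (-1.26 and -1.95). For GINS1 this holds in its brightest probe set alone. The others above the filter level gave 0 and -0.17 with siAkt1-22 and -0.12 and -0.32 with siAkt1-58. These others were dim, at 5.01 and 4.78 with siNT, against 9.14 in the brightest. Averaging all GINS1 probe sets gave -0.57 with siAkt1-58. GINS2 and GINS3, with 1 probe set each, lay at -1.49 and -1.50 with siAkt1-58 and stood at 0.10 and -1.28 with siAkt1-22. MCM10, which helps the assembled helicase start, read 6.39 and 4.28, against 6.98 with siNT, and was 6.46-fold lower with siAkt1-58. All 3 MCM10 probe sets were at least 2-fold lower with siAkt1-58, from -2.72 to -2.16. CDC45 was -0.03 and -0.47 in its brightest probe set and -0.44 and -1.63, and -0.24 and -1.18, in the others.

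Among the polymerase genes, primase and polymerase alpha subunits were lower with siAkt1-58 and more scattered with siAkt1-22. POLA1, the catalytic subunit of polymerase alpha, lay at -0.81 with siAkt1-22 and -1.07 with siAkt1-58, and its partner POLA2 at -0.90 and -1.89. The catalytic primase subunit PRIM1 read 7.79 with siAkt1-22 and 6.59 with siAkt1-58, against 8.40 with siNT. The large primase subunit PRIM2 read 7.01 and 5.51, against 6.62 with siNT. Both primase subunits were lower with siAkt1-58, by -1.81 and -1.12, but stood on opposite sides of siNT with siAkt1-22, at -0.61 and 0.39.

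Of the polymerase delta genes, the catalytic POLD1 (0.10 and -0.48) and the accessory POLD2 (-0.10 and -0.23) stayed within 1.5-fold of siNT. POLD3, an accessory subunit, read 6.71 with siAkt1-22 and 6.58 with siAkt1-58, against 7.93 with siNT (mean difference -1.29 ± 0.10, SD, n = 2). Other POLD3 probe sets gave -0.96 and -1.14, and -0.30 and -0.17, so the 2-fold call with both siRNAs holds for 1 of 3. POLD4, the small subunit and not among the 51, was higher with both siRNAs, reading 8.91 and 8.64, against 7.56 with siNT. In polymerase epsilon, the catalytic POLE lay at -0.23 and -0.68, while its partner POLE2 read 7.21 and 5.46, against 7.54 with siNT, and was 4.24-fold lower with siAkt1-58.

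The clamp and clamp loader genes held the largest difference of the 51, that of DSCC1. DSCC1, a subunit of an alternative loader that also serves sister chromatid cohesion, read 7.33 with siAkt1-22 and 5.77 with siAkt1-58, against 8.77 with siNT. Its differences were -1.44 and -3.00 (mean difference -2.22 ± 1.10, SD, n = 2), and all 3 of its probe sets were at least 2-fold lower with both. PCNA, the sliding clamp that tethers polymerases, read 9.98 and 9.04, against 10.72 with siNT. It was lower with both siRNAs, by -0.74 and -1.68, and its other probe set lay below the filter level.

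The canonical loader RFC has 1 large and 4 small subunits. The small subunit RFC3 read 8.75 with siAkt1-22 and 7.31 with siAkt1-58, against 9.46 with siNT, RFC4 read 9.73 and 7.85, against 9.19, and RFC5 read 8.40 and 6.60, against 8.47. All 3 were lowest with siAkt1-58, by -2.15, -1.35 and -1.88, and with siAkt1-22 they lay at -0.71, 0.54 and -0.07. The remaining small subunit RFC2 (0.31 and -0.90) and the large subunit RFC1 (-0.33 and -0.98) were just short of 2-fold with siAkt1-58. Probe sets above the filter level gave the same picture for RFC5 (-1.88 to -1.79 with siAkt1-58 over 3 probe sets) and RFC3 (-2.15 and -2.10).

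Genes that finish the lagging strand lay on different sides of siNT with siAkt1-22. FEN1, which trims the displaced primer flap, read 8.47 with siAkt1-22 and 8.23 with siAkt1-58, against 9.70 with siNT (mean difference -1.35 ± 0.17, SD, n = 2), and all 3 probe sets were at least 2-fold lower with both. LIG1, the ligase that seals the nick, read 6.82 and 5.83, against 6.31 with siNT, and all 5 of its probe sets above the filter level were higher with siAkt1-22 (0.30 to 0.54) and lower with siAkt1-58 (-0.48 to -0.16). RNASEH2A, the catalytic subunit of the RNase H2 that removes ribonucleotides, read 8.75 and 6.75, against 7.69 with siNT. RNASEH2A thus stood 2.08-fold above siNT with siAkt1-22 and 1.92-fold below it with siAkt1-58, and its other probe set gave the same split (1.18 and -0.93). Its partner subunits, not among the 51, were RNASEH2B (0.26 and -2.13) and RNASEH2C (0.12 and -0.70).

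Of the genes that guard single-stranded DNA and the fork, TIPIN had the widest gap between the siRNAs among the 51. TIPIN read 7.73 with siAkt1-22 and 5.52 with siAkt1-58, against 7.56 with siNT, a 4.64-fold difference between the siRNAs. Its partner TIMELESS, with which it forms the fork protection complex, lay at -0.17 and -0.51. Other TIPIN probe sets gave 0.08 and -1.35, and 0.04 and -0.41, the last of them dim at 4.17 with siNT. WDHD1, which links polymerase alpha to the helicase, read 6.41 and 5.31, against 6.92 with siNT. The subunits of RPA, the main single-strand binding protein, stayed close to siNT for RPA1 (0.17 and -0.01) and RPA3 (0.38 and -0.18), whereas RPA2 was -0.41 and -0.99 and reached -0.75 and -1.53 in another probe set.

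Behind the fork, the chromatin assembly factor subunits CHAF1A (-0.28 and -0.92) and CHAF1B (-0.54 and -1.13), which deposit histones on new DNA, were lower with both siRNAs in their brightest probe sets, more so with siAkt1-58. The other CHAF1B probe set above the filter level read the same in all libraries (0 and 0), and averaging the pair gave -0.56 with siAkt1-58. DTL, the substrate receptor of the CUL4 ubiquitin ligase that destroys CDT1 on clamp-bound DNA, read 8.01 with siAkt1-22 and 7.75 with siAkt1-58, against 9.47 with siNT. Its difference was -1.59 ± 0.18 (SD, n = 2), with -1.93 and -2.08 in the other probe set. The genes of the ligase core outside the 51 did not share it: CUL4A was -0.72 and -0.35, CUL4B -0.48 and 0.42, DDB1 0.54 and 0.08, and RBX1 0.12 and 0.10.

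The 2-fold limit with both siRNAs left a gap among the replication genes. Just inside it were GINS3 (-1.28 and -1.50), FEN1 (-1.23 and -1.47) and POLD3 (-1.22 and -1.36). Just outside were CDC6 (-0.92 and -1.89), POLA2 (-0.90 and -1.89), GINS4 (-0.86 and -1.95) and POLA1 (-0.81 and -1.07). Over the 35 genes with more than 1 probe set above the filter level, probe sets of a gene lay within 0.5 of each other in 26 genes with siAkt1-22 and in 19 genes with siAkt1-58. The probe sets that stand for ORC1, ORC4, POLD2, RFC2 and RNASEH2A carry the Affymetrix suffix _x_at, used for sets with probes that may match other transcripts. Those for DBF4, DSCC1, DTL, FEN1, MCM2, PRIM2, GINS4, ORC3, POLE, RPA1 and CHAF1A carry _s_at, used for sets shared by several transcripts. Of all 123 replication probe sets above that level, 20 were at least 2-fold lower with siAkt1-22 and 70 with siAkt1-58, against 6.6% and 3.56% of the 28249 single-gene probe sets of the array above it.

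Other genes of DNA replication, from a list of 40 that are not among the 51, were measured beside them. Of the 39 that passed the filter, 24 were below siNT with both siRNAs and 4 above, with medians of -0.17 with siAkt1-22 and -0.66 with siAkt1-58. At least 2-fold lower with siAkt1-58 were 13 of the 39 (33.3%), against 3.58% of all genes tested. At least 2-fold lower with both were 5, against 1.17% of all genes tested. The lowest were the flap nuclease and helicase DNA2 (-1.93 and -2.36), UHRF1, which reads hemimethylated DNA (-1.56 and -1.92), the replisome factor DONSON (-1.39 and -1.58) and the ubiquitin ligase subunit SKP2 (-1.26 and -1.63). ATAD5, which unloads PCNA, was the fifth (-1.16 and -1.82). Above siNT with both were POLD4 (1.35 and 1.08) and LRWD1, an ORC-associated protein (0.63 and 0.27).

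Genes for nucleotide supply and for mitosis had medians nearer to siNT with siAkt1-58. The 18 nucleotide genes measured had medians of -0.19 with siAkt1-22 and -0.61 with siAkt1-58. Of them, 3 (16.7%) were at least 2-fold lower with siAkt1-58, against 3.58% of all genes tested. The 28 mitotic genes had medians of -0.31 and -0.75, and 9 of them (32.1%) were at least 2-fold lower with siAkt1-58, against 58.8% of the replication genes. The difference between these sets was not tested, and all of them rest on the same 3 libraries.

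**Figure D4:**
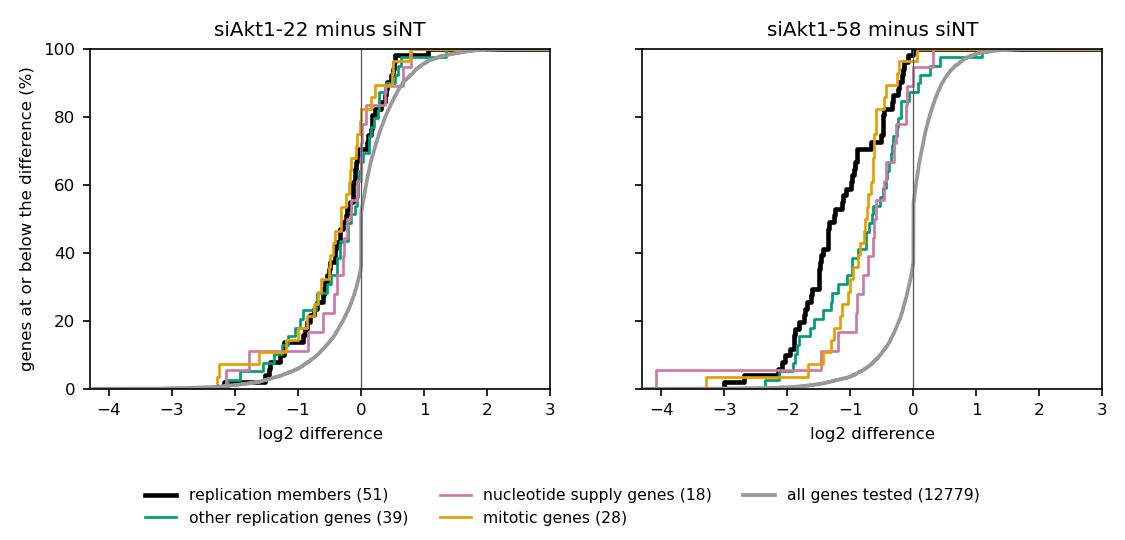
Cumulative share of genes (y axis, percent) at or below a log2 difference from siNT (x axis) with siAkt1-22 (left) and siAkt1-58 (right), for the 51 replication genes, 39 other replication genes, 18 nucleotide supply genes, 28 mitotic genes and all 12779 genes tested, 1 library per siRNA. With siAkt1-58 the replication curve lies left of the others over most of its length (median -1.26, against 0 for all genes tested), while with siAkt1-22 it runs among the other sets (median -0.23).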

How the data were processed

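Total RNA (10 ng per library) was amplified and biotin-labelled by a 3' IVT kit for 3 Affymetrix arrays, per the labels' protocols. The authors deposited 1 log2 value per probe set and array, made with RMA per the submitters' processing notes, which give no version or settings; the log2 scale was read from the values. RMA equalises the arrays and often gives tied values (27.1% of genes tested, 0 of the 51). Symbols came from the platform annotation, updated through Entrez identifiers (45172 of 45253 single-gene probe sets).

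With Python 3.11.15 the brightest probe set was taken per gene and genes above the 30th percentile were kept. A gene was counted at a log2 difference of at least 1, a rule of size with no test. The SD beside a mean difference is the spread between the 2 siRNAs in the brightest probe set. It holds no variation of siNT or between probe sets. limma 3.58.1 in R 4.3.3 (lmFit, eBayes, threshold 0.05, Benjamini-Hochberg over all genes tested) compared siAkt1 (2 libraries) with siNT (1), and was checked on simulated data. Alternatives were averaged or median probe sets, median centring, quantile normalization, other filters, 1.5-fold and each siAkt1 library left out. Promoters are from RefSeq; protein sequences were not used here.

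The 51 genes, the comparison lists and the motifs were chosen with earlier results of these data known. All 51 could be named. From the other replication genes the 4 lowest and the 2 highest by the smaller difference were named, with AKT1. ATAD5, the ligase core genes, RNASEH2B, RNASEH2C, the markers named and the genes in the closing section were chosen after their values were seen.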

Additional observations from a re-analysis of the deposited data

How the results depend on the processing

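Every figure rests on 1 siNT library and 1 library per siRNA, so precision is limited by the 3 arrays. Leaving out 1 siAkt1 library at a time, the count of replication genes at least 2-fold lower ran from 7 (siAkt1-22 alone) to 30 (siAkt1-58 alone), against 7 with both, and the count at least 2-fold higher from 0 (siAkt1-58 alone) to 1 (siAkt1-22 alone), against 0 with both; limma has no residual degrees of freedom in that case and was not run. With 1.5-fold in place of 2-fold, 14 genes were lower with both siRNAs (3.58% of all genes tested), 14 were lower with siAkt1-22 (12%), and 32 were higher with siAkt1-22 than with siAkt1-58 (12.1%). The median with siAkt1-22 ran from -0.26 to -0.16 (the latter with the median of probe sets) and that with siAkt1-58 from -1.30 to -1.09. The 2-fold counts kept within 1.5 times, and the limma count stayed at 0, under averaged or median probe sets, median centring, quantile normalization, no filter and a 50th percentile filter. Averaged probe sets and the median of the probe sets above the filter level (the latter chosen after seeing the data) each removed POLD3 from the genes lower with both and added CDC6. Averaging, which included probe sets below the filter level, took 6 genes (CDC7, CHAF1B, GINS1, PCNA, POLD3 and RFC4) out of the 30 lower with siAkt1-58. For PCNA and RFC4 every probe set but the brightest lay below that level. Their values with the median of probe sets above it stayed at -1.68 and -1.35. Averaging brought 4 genes in (CDC45, MCM2, MCM3 and RPA2). The median of probe sets took out 3 (CDC7, CHAF1B and GINS1) and brought in CDT1 beside those 4. No difference of a gene at or beyond 2-fold changed sign. No paired analysis was possible because the labels give no replicate numbers and there is 1 siNT library.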

Other observations

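Some genes outside the 51 had the opposite order of the siRNAs, and were chosen here after their values were seen. CENPF, a kinetochore protein of the late cell cycle, read 6.56 with siAkt1-22 and 8.22 with siAkt1-58, against 8.82 with siNT. CENPA, the centromeric histone, had the order seen in most replication genes, reading 8.65 with siAkt1-22 and 5.68 with siAkt1-58, against 8.97 with siNT. Lower with siAkt1-22 than with siAkt1-58 were 6 of the 28 mitotic genes and 2 of the 51 replication genes (MCM6 and DBF4), against 37.2% of all genes tested.

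The histone chaperone gene SUPT16H read 7.22 with siAkt1-22 and 8.69 with siAkt1-58, against 9.33 with siNT, whereas its FACT partner SSRP1 was -0.21 and -0.44. The topoisomerase TOP1 was -1.05 and -0.32. In nucleotide synthesis PPAT, the first enzyme of the purine pathway, was -2.14 and -0.28, and CTPS1, which makes CTP, was -1.77 and -0.59. These differences have no replicate and were not tested.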
